A study of Mus musculus with 2 samples.

Results

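The genes described here encode proteins of the cytosolic ribosome. They were taken as every gene whose single annotated symbol was Rpl or Rps followed by a digit, or Rplp0, Rplp1, Rplp2 or Rpsa, without Rps6k kinases and pseudogenes. Of 18193 genes measured with a probe set of 1 symbol, 49 met this rule. They comprised 25 proteins of the large subunit, 22 of the small subunit, and 2 genes that match by name only. These are Rpl7l1, a nucleolar relative of Rpl7, and Rps19bp1, which encodes a nucleolar protein that binds Rps19. Ebp1 knock out murine embryo fibroblasts (MEFs) were compared with wild type MEFs on 1 array per genotype. Both cultures came from day 12.5 embryos and were used at passage 2. The knock out line carries a retroviral gene trap in intron 2 of Pa2g4, the gene for Ebp1, made in 129/SvEvBrd embryonic stem cells and kept on a mixed C57BL/6 and 129SvEvBrd background. The trap leaves a fusion transcript with the start of Ebp1 only, and the sources used here do not say how many embryos were behind each culture. With 1 array per genotype there is no spread between replicates, so no error and no test is given, and genotype, culture and array cannot be told apart. Likewise, more RNA per cell and more cells of a type cannot be told apart in RNA from whole cultures.

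Cytosolic ribosomes are built from ribosomal RNA and a set of proteins of which most are present once per subunit. In growing mammalian cells the mRNAs for these proteins are very abundant. Most start with a 5′ terminal oligopyrimidine (TOP) tract, a run of C and T bases at the cap, through which mTOR and Larp1 regulate their translation. Ebp1 is known as a nucleolar and cytoplasmic protein that associates with ribosomes and their precursors. The study profiled these cultures to learn which transcripts differ where Ebp1 is lacking.

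Windows of 60 bases around the start sites in the RefSeq annotation (GRCm38.p6) are shown for members on which the results turn, with 40 bases before and 20 from the start. Capitals mark the longest run of C and T. Rps6 is the member with the highest ratio, Rplp2 belongs to the P stalk, and Rps18, Rps10, Rpl38 and Rpl35 are further members of both subunits with a run of at least 8 at the start.
Rps6, chr4:86857348-86857407, minus strand: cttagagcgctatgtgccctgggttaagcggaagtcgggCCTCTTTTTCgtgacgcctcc
Rplp2, chr7:141447611-141447670, plus strand: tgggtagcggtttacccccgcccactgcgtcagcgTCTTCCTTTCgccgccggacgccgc
Rps18, chr17:33955646-33955705, minus strand: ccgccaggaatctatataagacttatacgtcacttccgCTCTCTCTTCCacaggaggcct
Rps10, chr17:27635225-27635284, minus strand: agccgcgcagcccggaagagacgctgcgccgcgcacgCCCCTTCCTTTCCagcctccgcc
Rpl38, chr11:114668540-114668599, plus strand: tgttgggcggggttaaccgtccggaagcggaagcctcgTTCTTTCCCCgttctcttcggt
Rpl35, chr2:39005112-39005171, minus strand: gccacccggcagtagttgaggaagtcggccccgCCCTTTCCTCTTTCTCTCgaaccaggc

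Rplp0 is shown because its annotated start has no run of 8 although its ratio is among the highest. Rpl41 and Rps26 are shown because they lie beside Pa2g4.
Rplp0, chr5:115559427-115559486, plus strand: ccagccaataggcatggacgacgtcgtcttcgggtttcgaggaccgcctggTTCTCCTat
Rpl41, chr10:128549149-128549208, minus strand: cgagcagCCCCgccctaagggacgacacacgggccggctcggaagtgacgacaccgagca
Rps26, chr10:128626487-128626546, minus strand: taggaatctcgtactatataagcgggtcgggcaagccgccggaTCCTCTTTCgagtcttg

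Most ribosomal protein genes had a slightly higher signal in the knock out MEFs than in the wild type MEFs. Of all 49 genes, 43 had a log2 ratio above 0 (knock out divided by wild type signal, here and below), with a median of 0.16 and a range from -0.38 to 1.18. All genes without a minimum signal had a median of -0.01, and their share above 0 was not counted. The 43 include very dim members, such as Rps16 with 0.997 units in knock out MEFs and 0.825 in wild type MEFs. The minimum of the study's methods, a signal of 500 intensity units, was reached on 1 array or both by 42 members. Among these, 39 reached it on both arrays, Rps6 only on the knock out array, and Rpl12 and Rps19bp1 only on the wild type array. Of the 42, 38 lay above 0, against 42.2% of all 5014 genes that reached 500, and the count was 23 after quantile normalization and 2, Rps6 and Rpl22l1, after scaling to the spike-in controls. Their median log2 ratio was 0.16 (interquartile range 0.11 to 0.21), which is 11.7% higher in knock out MEFs, against -0.05 for all genes. Scaling to the spike-ins moved both medians down by 0.39, to -0.23 for the members and -0.44 for all genes, and so left the distance of 0.21 between them as it was. Centring each array on its median signal gave 0.05 for the members and -0.16 for all genes.

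The differences were small. Signals more than 25% higher in knock out MEFs were seen for 4 of the 42 members, against 9.71% of all genes that reached 500. Signals more than 20% lower, the same fold in the other direction, were seen for 0 members, against 17.6% of all genes. The 4 were Rps6, Rpl22l1, Rps25 and Rplp0. The 2-fold threshold of the study's methods was passed by Rps6 alone, upward, against 0.758% of all genes that were higher and 1.06% that were lower by that fold. With the deposited scaling most of the family was thus slightly above 0, while centring on the median left 31 of the 42 above 0 and loess on signal 34.

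**Figure D1:**
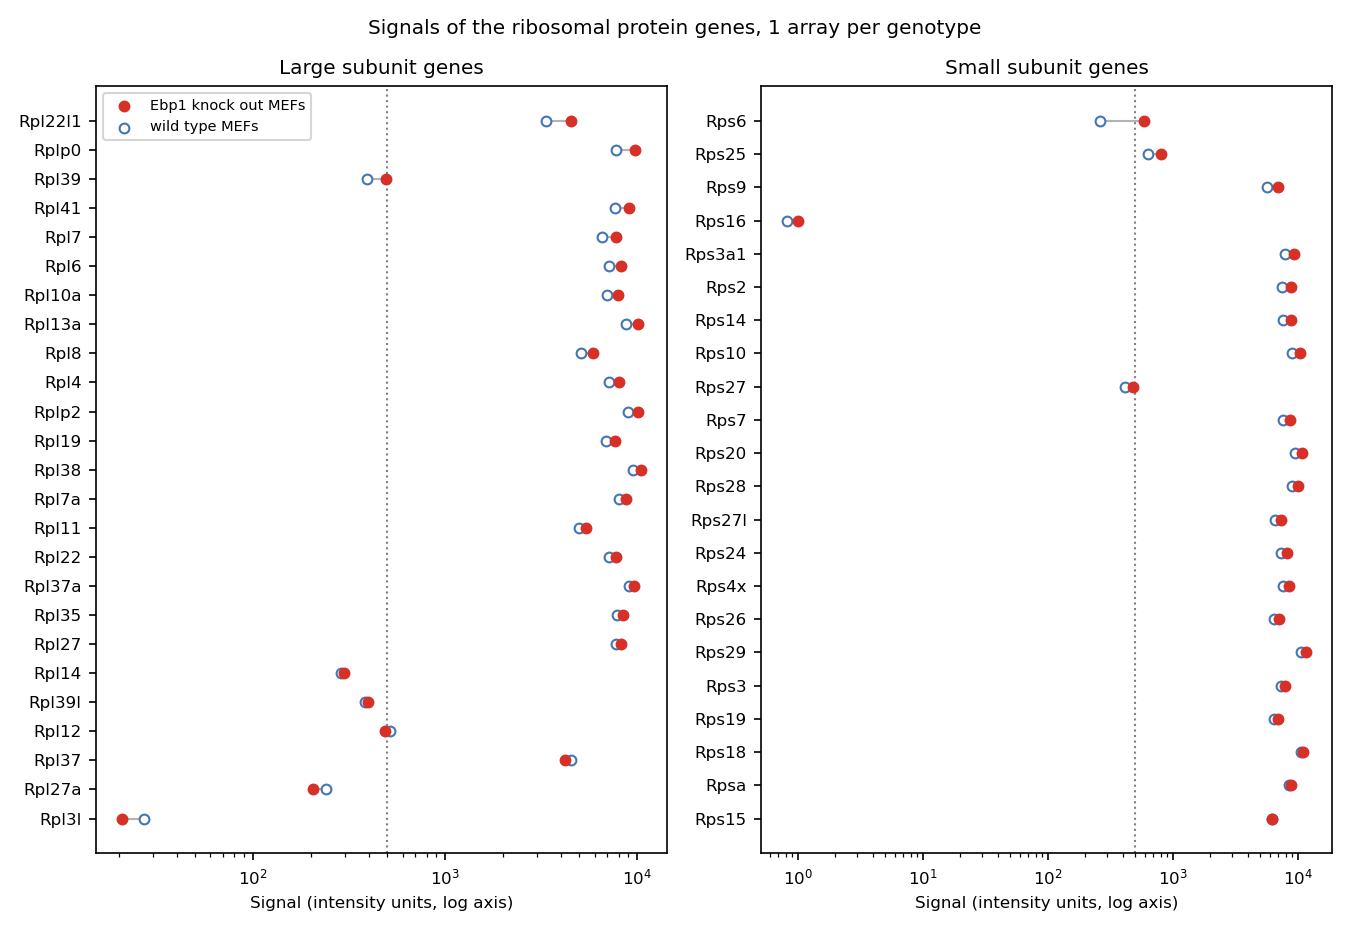
Signals in intensity units on a log axis for the large subunit genes (left) and the small subunit genes (right), with filled points for Ebp1 knock out MEFs, open points for wild type MEFs, 1 array each, and a dotted line at 500. With the deposited scaling 38 of the 42 members that reached 500 were higher in knock out MEFs, against 42.2% of all genes that reached 500. Only 2 of the 42 were higher after scaling to the spike-ins. Rps6 has the widest gap, and 7 members lie under 500 on both arrays.

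The members were concentrated among the high signals, where most genes were shifted. Signals of 5000 units or more on 1 array or both were found for 35 of the 49 genes, which made up 17.1% of the 205 genes that did so. All 35 had a log2 ratio above 0, from 0.01 to 0.33 with a median of 0.16. The share above 0 was 82% for all 205 genes and 78.2% for the 170 genes among them that are no members. The median of these 170 genes was 0.12 (range -0.47 to 0.59). At high signals the members therefore lay close to the other genes, 0.03 above the median of all 205. They were less spread out, with a standard deviation across genes of 0.07 for the members and 0.18 for the other genes. Rplp0 was the only one of the 35 members more than 25% higher in knock out MEFs, against 8.29% of the 205 genes and 9.41% of the 170. None of the 35 was more than 20% lower, against 1.95% of the 205 genes and 2.35% of the 170. Loess on signal gave a median of 0.07 for the 42 members that reached 500, and quantile normalization gave 0.02. The part of the shift at high signals in the members' ratios was not tested further.

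**Figure D2:**
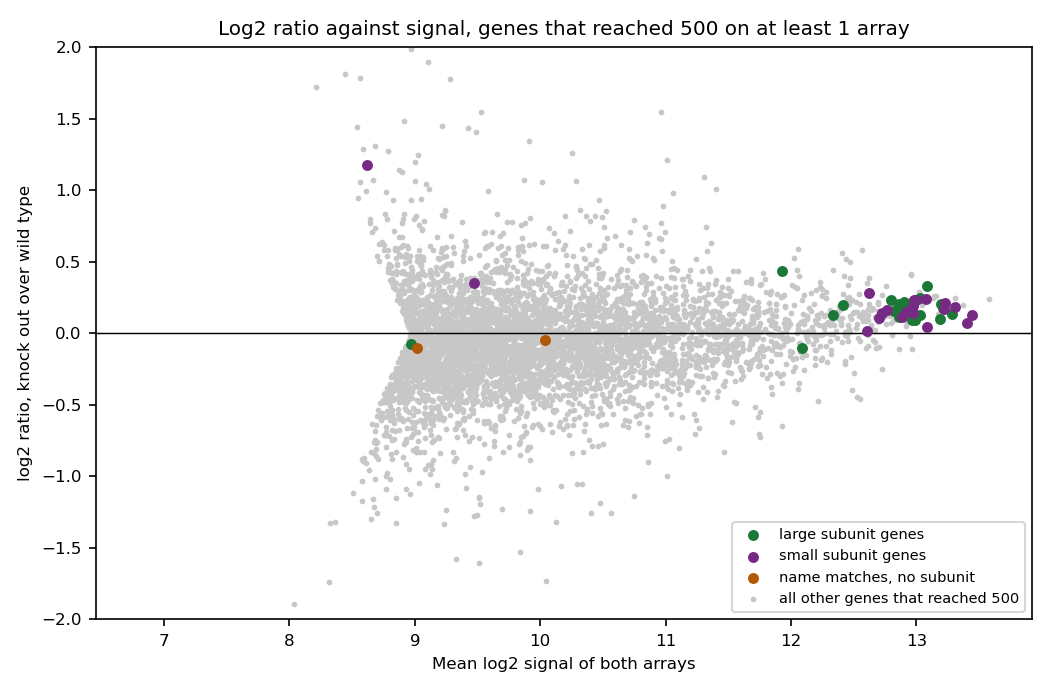
The log2 ratio (knock out divided by wild type) against the mean log2 signal of both arrays, for genes that reached 500 on at least 1 array, with large subunit genes in green, small subunit genes in purple, the 2 genes that match by name only in orange and all other genes in grey (14 genes lie outside the limits of -2 and 2). Most members sit at the right, in a narrow band above 0 with the deposited scaling, where most grey points lie above 0 too; under spike-in scaling the band lies below 0.

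The large and small subunits had nearly equal medians. Large subunit genes that reached 500 had a median log2 ratio of 0.16 (n = 20 genes, range -0.10 to 0.44, 2 below 0). Small subunit genes that reached 500 had a median of 0.17 (n = 20 genes, range 0.01 to 1.18, 0 below 0). The difference of the medians, large minus small, was -0.0026. Among members that reached 5000 it was 0.0151, from 0.17 for 17 large subunit genes and 0.16 for 18 small subunit genes. Over all members of each subunit the medians were 0.13 (25 genes, 4 below 0) and 0.18 (22 genes, 0 below 0). Genes of 1 pair of arrays are not replicates, so these ranges describe the genes and carry no error of the difference.

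The P stalk of the large subunit, which recruits translation factors, was represented by 2 members. Rplp0, the stalk base protein, had 9743 units in knock out MEFs and 7751 in wild type MEFs (log2 ratio 0.33), the second highest ratio of the large subunit genes that reached 500. Rplp2, one of the acidic stalk proteins, had 10087 units in knock out MEFs and 8955 in wild type MEFs (0.17), the median of the large subunit genes that reached 5000. The acidic protein Rplp1 had no probe set of its own, and a probe set annotated to both Gm13777 and Rplp1 had 10257 units in knock out MEFs and 8671 in wild type MEFs (0.24). All 3 probe sets were thus higher in knock out MEFs with the deposited scaling, while Rplp0 was at -0.06 and Rplp2 at -0.22 after scaling to the spike-ins, and Rplp2 at -0.0034 after quantile normalization.

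Rpl11, which forms the 5S ribonucleoprotein with Rpl5 and 5S ribosomal RNA and can bind the p53 regulator Mdm2, had 5397 units in knock out MEFs and 4949.7 in wild type MEFs (log2 ratio 0.12). Its partner was measured only on 3 probe sets annotated to both Rpl5 and Rpl5-ps2. The first had 9743 units in knock out MEFs and 8082 in wild type MEFs (0.27). The other two had 628 and 571 units in knock out MEFs, against 396 and 335 in wild type MEFs (0.67 and 0.77). None of the 3 was below 0 with the deposited scaling, and these probe sets cannot tell the gene from its pseudogene.

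Genes for proteins that line the peptide exit tunnel of the large subunit had ratios of 0.17 for Rpl4, 0.16 for Rpl19 and 0.09 for Rpl35. Their signals were 8025, 7648 and 8396 units in knock out MEFs and 7109, 6865 and 7874 in wild type MEFs. The tunnel protein gene Rpl39 stayed under the minimum with 494 units in knock out MEFs and 393 in wild type MEFs (0.33). With the deposited scaling all 4 were above 0, and after scaling to the spike-ins all 4 were below 0. The share above 0 with the deposited scaling was 82% for all genes that reached 5000, as Rpl4, Rpl19 and Rpl35 did. Rpl38, known in mice for its part in the translation of Hox mRNAs, had 10430 units in knock out MEFs and 9501.5 in wild type MEFs (0.13). Rpl13a, known in human cells as a regulator of inflammatory mRNAs once released from the ribosome, had 10075 units in knock out MEFs and 8756 in wild type MEFs (0.20).

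Only 2 large subunit genes that reached 500 were lower in knock out MEFs. Rpl37 had 4206 units in knock out MEFs and 4515 in wild type MEFs (log2 ratio -0.10). Rpl12, whose protein sits at the base of the stalk, had 487 units in knock out MEFs and 514 in wild type MEFs (-0.08). Both differences were small, and other probe sets that carry these symbols beside others did not share the direction. Probe sets annotated to both Rpl37rt and Rpl37 had 8391 and 7445 units in knock out MEFs, against 7704 and 7271 in wild type MEFs (0.12 and 0.03). A probe set annotated to both Gm11425 and Rpl12 had 6444 units in knock out MEFs and 5666 in wild type MEFs (0.19). The 2 genes that match by name only were also slightly lower in knock out MEFs by their brightest probe sets. Rpl7l1 had 1031 units in knock out MEFs and 1068 in wild type MEFs (-0.05), and Rps19bp1 had 499 units in knock out MEFs and 537 in wild type MEFs (-0.11). Other probe sets of Rpl7l1 did not share the direction. They had 568 and 257 units in knock out MEFs, against 480 and 248 in wild type MEFs (0.24 and 0.05).

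Among small subunit genes, the head of the subunit, which contacts the mRNA and the transfer RNAs during decoding, was represented by 10 measured genes, 9 of which reached 500. Their median log2 ratio was 0.13, and all 9 were above 0 with the deposited scaling, against 6 after median centring, 3 after quantile normalization, 7 after loess and 0 after scaling to the spike-ins. With the deposited scaling 42.2% of all genes that reached 500 were above 0. The share was 82% for all genes that reached 5000, as all of the 9 but Rps25 did. The median of all genes that reached 5000 was 0.13 too. Rps29 had 11642 units in knock out MEFs and 10667 in wild type MEFs (0.13). Rps18 had 11102 units in knock out MEFs and 10578 in wild type MEFs (0.07). Rps20 had 10824 units in knock out MEFs and 9529.85 in wild type MEFs (0.18), and Rps10 had 10337 units in knock out MEFs and 8941 in wild type MEFs (0.21). Rps15 was nearly equal, with 6266 units in knock out MEFs and 6213 in wild type MEFs (0.01). Rps25, known for its part in initiation at viral internal ribosome entry sites, had the highest ratio of the head with 802 units in knock out MEFs and 629 in wild type MEFs (0.35). That probe set is dim, and a probe set annotated to Gm6988, Gm4963 and Rps25 together had 3879 units in knock out MEFs and 3808 in wild type MEFs (0.03).

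Rpsa, which also carries the name laminin receptor, had 8798 units in knock out MEFs and 8551 in wild type MEFs (log2 ratio 0.04), the second lowest ratio of the small subunit. Rps9, a protein of the mRNA entry channel, had 6947 units in knock out MEFs and 5715 in wild type MEFs (0.28), the highest ratio of the small subunit genes that reached 5000. Other probe sets of Rps9 had 2769 and 305 units in knock out MEFs, against 2667 and 275 in wild type MEFs (0.05 and 0.15). Rps3, which lies at the same channel, had 7877 units in knock out MEFs and 7271 in wild type MEFs (0.12). Genes whose human counterparts are mutated in Diamond-Blackfan anaemia, a disorder of red cell production, held a narrow range. Of 11 measured, 10 reached 500, with ratios from 0.09 to 0.21 and a median of 0.13 (0.01 after quantile normalization and -0.26 after scaling to the spike-ins). Rps19, the first of these genes to be found, had 6902 units in knock out MEFs and 6421 in wild type MEFs (0.10).

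Several members have a paralog that replaces them in certain tissues or states. Rpl22l1, the paralog of Rpl22, had 4535 units in knock out MEFs and 3349 in wild type MEFs (log2 ratio 0.44). That is the second highest ratio of all 49 members. Its partner Rpl22 had 7724 units in knock out MEFs and 7143 in wild type MEFs (0.11). The pair was thus unequal, by 0.32 on the log2 scale. Rps27l, a p53 target gene in human cells, had 7389 units in knock out MEFs and 6595 in wild type MEFs (0.16). Rps27 stayed under 500 on both arrays, with 481 units in knock out MEFs and 418 in wild type MEFs (0.20). A bright probe set annotated to both Rps27rt and Rps27 had 6358 units in knock out MEFs and 6258 in wild type MEFs (0.02). Rpl39l, known from male germ cells, had 397 units in knock out MEFs and 384 in wild type MEFs (0.05). Rpl3l, the paralog of striated muscle, was not far above zero with 20.8 units in knock out MEFs and 27.1 in wild type MEFs (-0.38). Of 6 skeletal muscle markers, 4 were under 100 on both arrays, among them Myod1. Their sum was 976 units in knock out MEFs and 727 in wild type MEFs, mostly from Acta1 with 699 units in knock out MEFs and 486 in wild type MEFs. Rpl7 had 7709 units in knock out MEFs and 6553 in wild type MEFs (0.23), against the ratio of -0.05 of Rpl7l1.

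Rps6 stood apart from the other members. It encodes the substrate of the S6 kinases, whose phosphorylation is widely read as a sign of mTOR activity. Its brightest probe set of 1 symbol had 591 units in knock out MEFs and 261 in wild type MEFs (log2 ratio 1.18). No other member lay over 1.5-fold from the members' median. A second probe set of Rps6 was low on both arrays, with 37.9 units in knock out MEFs and 37.2 in wild type MEFs (0.03), and the mean of both probe sets was no longer over 2-fold. A further 9 probe sets were annotated to both Rps6-ps4, a pseudogene, and Rps6. The brightest of these had 9146 units in knock out MEFs and 7762 in wild type MEFs (0.24). The next had 8499 units in knock out MEFs and 7562 in wild type MEFs (0.17). The others of the 9 ran from -0.05 (701 units in knock out MEFs, 726 in wild type MEFs) to 0.87 (2054 units in knock out MEFs, 1121.5 in wild type MEFs). So the probe sets that carry this symbol spread from -0.05 to 1.18, and the 4 of them that reached 5000 lay between 0.09 and 0.32.

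Members under 500 on both arrays numbered 7, with a median log2 ratio of 0.05 (range -0.38 to 0.33). They were Rpl3l, Rpl27a, Rpl14, Rpl39, Rpl39l, Rps16 and Rps27. Rps16 had 0.997 units in knock out MEFs and 0.825 in wild type MEFs, which allows no reading of a ratio. Rpl27a had 205 units in knock out MEFs and 238 in wild type MEFs (-0.22), and Rpl14 had 298 units in knock out MEFs and 288 in wild type MEFs (0.05). Except for Rpl3l and Rpl39l, each of these symbols was also listed beside others on a bright probe set. A probe set annotated to LOC100862433, Rps16-ps2 and Rps16 had 8624 units in knock out MEFs and 8235 in wild type MEFs (0.07). A probe set annotated to both Gm32211 and Rpl39 had 9170.0 units in knock out MEFs and 8239 in wild type MEFs (0.15). One that lists Rpl27a beside other symbols had 8526 units in knock out MEFs and 7467 in wild type MEFs (0.19). The brightest one annotated to both Rpl14-ps1 and Rpl14 had 7497 units in knock out MEFs and 7744 in wild type MEFs (-0.05). The others annotated to this pair ran from -0.10 to 0.15. A low signal of such a member thus belongs to its probe set of 1 symbol, and signals of different probe sets cannot be compared as levels.

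Many ribosomal protein genes have near-identical pseudogene copies, and their probe sets are often shared. Symbols of 31 further ribosomal protein genes or copies were listed only beside other symbols. In all, 110 probe sets listed a ribosomal protein symbol beside others, and some of these symbols are those of members. Of these probe sets, 89 reached 500, with a median log2 ratio of 0.15 (range -0.24 to 0.87) and 13 below 0. The 66 that reached 5000 had a median of 0.15 (range -0.09 to 0.34) and 3 below 0. These values lie close to those of the members, though the shared probe sets are not independent of them. Fau, the gene of a ubiquitin-like protein fused to small subunit protein S30, had 6190.2 units in knock out MEFs and 5602 in wild type MEFs (0.14).

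The 49 members had 105 probe sets, 1 each for 25 members and at most 6. For 20 members more than 1 probe set reached 500, and in 14 of these all ratios lay on 1 side of 0. The exceptions were Rps15, Rps10, Rpl27, Rpl7l1, Rps24 and Rpl22. The range of ratios within a gene had a median of 0.17, from 0.0058 for Rps20 to 0.56 for Rpl22. Between members that reached 500, the interquartile range was 0.11, and the ratios ran from -0.11 to 1.18. The value within a gene is a full range, so it is not comparable with the interquartile range. The 3 probe sets of Rpl22 had 7724, 6687 and 716 units in knock out MEFs, against 7143, 5825 and 922 in wild type MEFs. The dimmest of the 3 was the only one below 0 (-0.36). Rps24 showed the same arrangement, with 4 bright probe sets above 0 and a dim one at 616 units in knock out MEFs and 767 in wild type MEFs (-0.32). For Rpl37a a dim probe set ran the other way, at 760 units in knock out MEFs and 521 in wild type MEFs (0.54). Probe sets other than the brightest that reached 500 numbered 39 and had a median of 0.17, with 6 below 0.

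**Figure D3:**
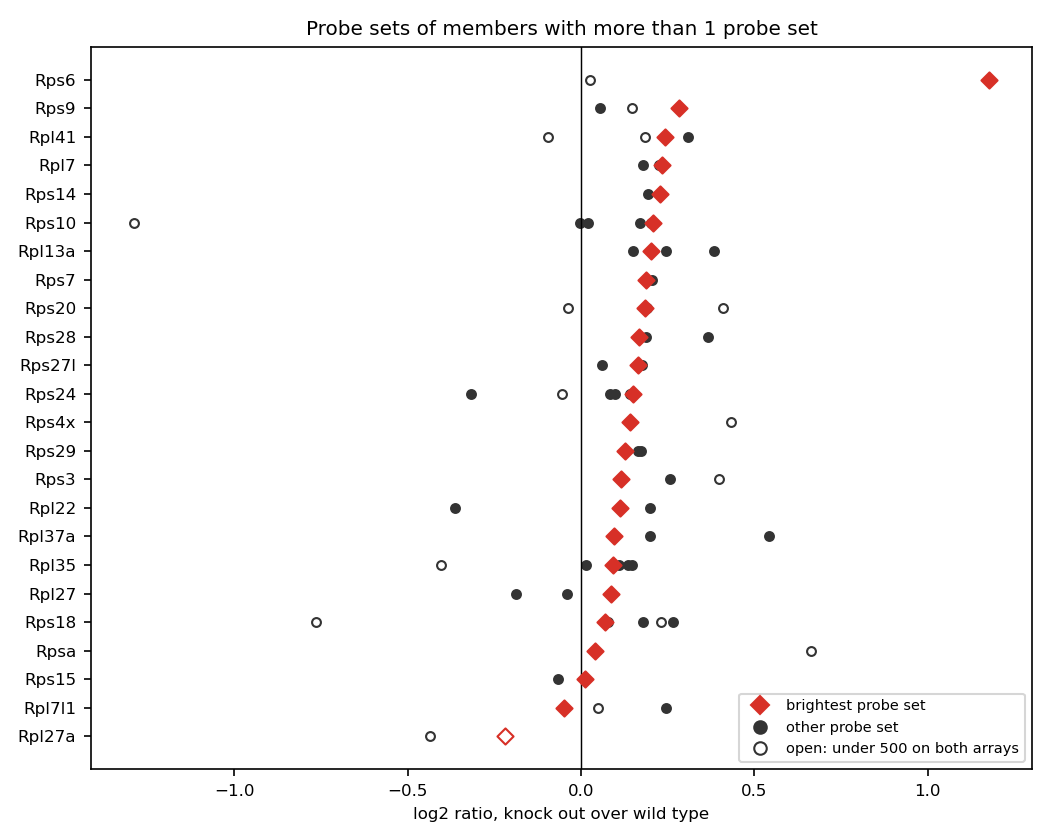
Log2 ratios (knock out divided by wild type) for each probe set of the members with more than 1, with a diamond for the brightest probe set of a gene, circles for the others and open symbols for probe sets under 500 on both arrays. With the deposited scaling most filled symbols lie just above 0, and 1 probe set of Rps6 stands apart at 1.18; under spike-in scaling every point moves down by 0.39.

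Pa2g4 was measured by 5 probe sets, all lower in knock out MEFs. The brightest had 1178 units in knock out MEFs and 1835 in wild type MEFs (log2 ratio -0.64), and the others ranged from -0.90 to -0.33. The array labelled knock out was thus lower at its target gene, and 2 probe sets stayed over 500 there. By other methods, the study found neither Ebp1 transcript (RT-PCR) nor Ebp1 protein (Western blot) in knock out MEFs. Rpl41 and Rps26 flank Pa2g4 on chromosome 10. Between Pa2g4 and Rpl41, which encodes the smallest ribosomal protein, the annotation has 1 gene, the pseudogene Gm9176. Between Pa2g4 and Rps26 it has 3, namely Erbb3, Mir6917 and Gm9182. Rpl41 had 9111 units in knock out MEFs and 7705 in wild type MEFs (0.24), and a second bright probe set had 5762 units in knock out MEFs and 4647 in wild type MEFs (0.31). Rps26 had 7103 units in knock out MEFs and 6460.4 in wild type MEFs (0.14). Both neighbours of the trapped gene were higher in knock out MEFs by these probe sets with the deposited scaling, and below 0 with the spike-in scaling, which takes 0.39 from each ratio.

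Other genes with TOP mRNAs had ratios like those of the ribosomal proteins. Of 14 measured genes for elongation factors and other TOP mRNAs, all reached 500 and 13 lay above 0, against 42.2% of all genes that reached 500 and 82% of those that reached 5000, as 9 of the 14 did. Their median was 0.21, while 12 lay above 0 after median centring, quantile normalization or loess and 0 after scaling to the spike-ins. Eef1a1, the factor that delivers aminoacyl transfer RNA, had 9784.5 units in knock out MEFs and 8248 in wild type MEFs (0.25). Vim, the gene for the intermediate filament protein vimentin, had 11051 units in knock out MEFs and 9308 in wild type MEFs (0.25). Eif3e, a subunit of initiation factor eIF3, was the only gene of this list more than 25% higher in knock out MEFs, with 5436 units in knock out MEFs and 4245 in wild type MEFs (0.36). Eef1d was the only one below 0, with 2685 units in knock out MEFs and 2707 in wild type MEFs (-0.01).

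Genes for ribosomal protein chaperones, importins and late subunit maturation were mixed. Of 20 measured, 14 reached 500, of which 10 were above 0, against 42.2% of all genes, with a median of 0.20, and only Sbds was above 0 after scaling to the spike-ins. More than 25% higher in knock out MEFs were 4 of the 14, against 9.71% of all genes. Sbds, which releases Eif6 from the large subunit, had 898 units in knock out MEFs and 645 in wild type MEFs (0.48). Eif6, which keeps the large subunit from joining too early, had 2053 units in knock out MEFs and 1638 in wild type MEFs (0.33). Ipo7, an importin of ribosomal proteins, had 2286 units in knock out MEFs and 1751 in wild type MEFs (0.38), and Heatr3, known in humans and yeast for the import of Rpl5, had 838 units in knock out MEFs and 655 in wild type MEFs (0.36). Aamp was lowest with 1308 units in knock out MEFs and 1573 in wild type MEFs (-0.27).

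The regulators of TOP mRNAs were mixed. Of 9 genes for Larp1, mTOR signaling and S6 kinases that reached 500, 3 were above 0, against 42.2% of all genes, with a median of -0.04, and from 0 (spike-ins) to 4 (quantile and loess) under the other scalings. Larp1, which binds the TOP tract, had 1599 units in knock out MEFs and 1425 in wild type MEFs (0.17). Rheb, the GTPase that activates mTOR, had 4664 units in knock out MEFs and 4306 in wild type MEFs (0.12). Eif4ebp1, a translation repressor and mTOR substrate, had 3988 units in knock out MEFs and 4099 in wild type MEFs (-0.04). Its relative Eif4ebp2 was the only gene of the list more than 20% lower in knock out MEFs, with 773 units there and 997 in wild type MEFs (-0.37).

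Promoters were found in the RefSeq table for 44 of the 49 members. A run of at least 8 C or T bases on the sense strand, within 50 bases on either side of a start, was present for 36 of the 44 (81.8%), against 39.3% of 27025 genes of the table. The longest run had a median of 10 bases for the members and 7 for all genes. In the windows printed above the run lies across or beside the start in Rps6, Rplp2, Rps18, Rps10, Rpl38 and Rpl35. The letters CTTTCC on the sense strand in the same 100 bases were found for 12 of the 44 (27.3%), against 5.43% of all genes. ACTTCCG, or CGGAAGT on the other strand, letters within the sites of ETS family factors, was found in the 300 bases of 14 members (31.8%), against 7.20% of all genes. AAGATGGC or GCCATCTT, as in sites of the factor Yy1, was found for 4 members (9.09%) and 3.19% of all genes, and TATAAA on the sense strand for 4 members (9.09%) and 4.05% of all genes. The members are all protein coding, while the table also holds other genes. Among its 17492 protein coding genes the shares were 39.2% for the run, 5.12% for CTTTCC and 9.39% for ACTTCCG. They were 3.57% for AAGATGGC and 4.54% for TATAAA.

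These letters separated the members little by ratio. Among members that reached 500, the median log2 ratio was 0.16 for 29 genes with a run of at least 8 and 0.13 for 8 genes without. It was 0.17 for 10 genes with CTTTCC and 0.14 for 27 without, and 0.12 for 14 genes with ACTTCCG and 0.17 for 23 without. Each range overlapped that of its counterpart, and a match of letters is a description of the window only.

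**Figure D4:**
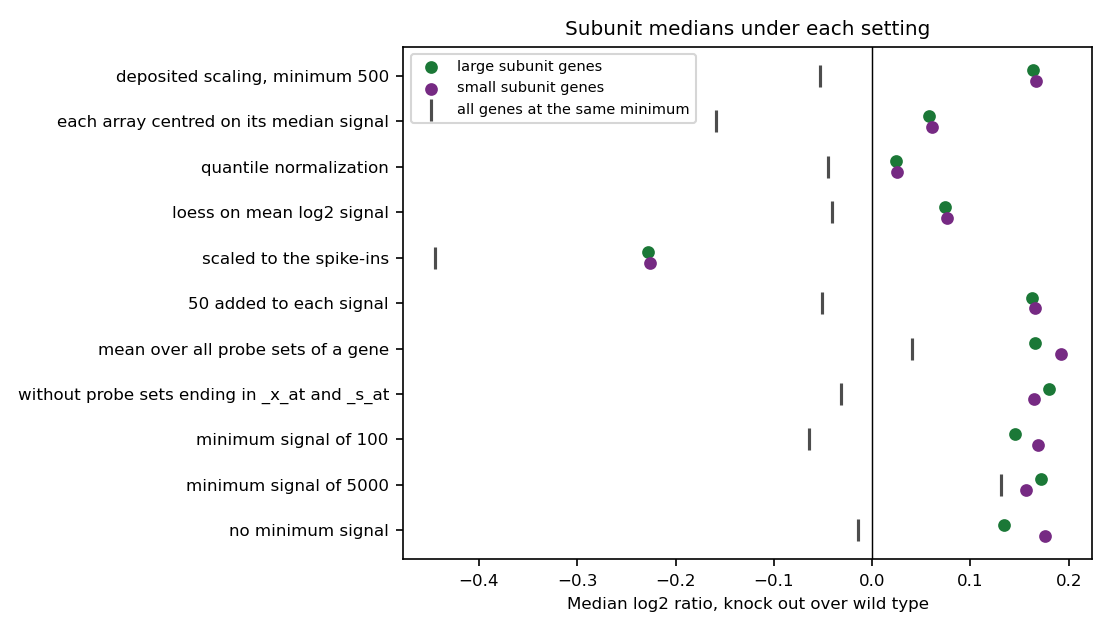
Median log2 ratio (knock out divided by wild type) for large subunit genes (green) and small subunit genes (purple) under the deposited scaling and 10 alternatives, with a vertical bar for the median of all genes at the same minimum. Both medians are above 0 except with the spike-ins, where both are at -0.23. Under every setting shown they lie above the median of all genes, a distance that median centring and spike-in scaling cannot change. Differences of large minus small run from -0.04 to 0.02.

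The other features of the arrays were as follows. The median signal of all probe sets was 71.6 on the knock out and 66.5 on the wild type array, and the highest signal was 13317 units on the knock out and 11310 on the wild type array. The 9 hybridization spike-in probe sets were 1.31-fold higher on the knock out array. For Actb the 3′ control signal was 1.21 times that at the 5′ end on the knock out array and 1.29 times on the wild type array. For Gapdh it was 0.800 times on the knock out and 0.949 times on the wild type array. Fibroblast markers were bright on both arrays, with 9 of 10 measured, none under 100 on both arrays, and sums of 53578 units in knock out and 51859 in wild type MEFs. Thy1 and Pdgfrb among them were lower in knock out MEFs (log2 ratios -0.58 and -0.67). Of 8 epithelial markers 5 were under 100 on both arrays, and the sum of 1875 units in knock out and 575 in wild type MEFs came mostly from Epcam, with 1350.5 units in knock out and 174 in wild type MEFs. Cdh1 had 19.5 units in knock out MEFs and 11.5 in wild type MEFs. Cldn4 had 121 units in knock out MEFs and 36.2 in wild type MEFs (1.74), and Cldn3 had 40.3 in knock out and 17.9 in wild type MEFs (1.17). Krt5 was the only epithelial marker lower in knock out MEFs, with 108 units there and 138 in wild type MEFs (-0.35). Of 6 endothelial markers 5 were under 100 on both arrays, Pecam1 among them, with sums of 281 units in knock out and 243 in wild type MEFs. Of 5 blood cell markers measured 3 were under 100 on both arrays, Ptprc among them, while Lyz2 had 235 units in knock out and 357 in wild type MEFs and Csf1r had 385 in knock out and 366 in wild type MEFs. Neural markers were mixed, with 1 of 5 measured, Sox2, under 100 on both arrays. Map2 among them had 1059 units in knock out and 839.8 in wild type MEFs (0.33), and Nes had 470.5 in knock out and 344 in wild type MEFs (0.45). The others were not higher in knock out MEFs. Tubb3 had 122 units in knock out and 170 in wild type MEFs (-0.48). Sox10 had 147.7 in knock out and 148.3 in wild type MEFs (-0.01), and Sox2 had 6.59 in knock out and 14.7 in wild type MEFs (-1.16). The part of these differences in the ratios of the ribosomal protein genes was not tested.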

How the data were processed

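Total RNA of Ebp1 knock out and wild type MEFs was hybridized to 1 array each. The deposited values are linear signal intensities, 1 per probe set, which the authors made with MAS5 (named in the submitters' processing notes) and brought to the same target intensity on both arrays. The number of arrays, 1 per genotype, limits the precision. Of 45037 probe sets without controls, 34945 carried 1 gene symbol in the platform annotation, 932 several and 9160 none. All 49 members were matched by Entrez identifier to the RefSeq table (GRCm38.p6), which classes Rps4l and Rps15a-ps6, left out here, as transcribed pseudogenes. The probe set with the highest mean log2 signal stood for a gene. Log2 ratios (knock out divided by wild type) were summarised at a minimum of 500 on at least 1 array, with thresholds of 1.25-fold (25% higher or 20% lower) and 2-fold. Named were the 5 highest and 5 lowest ratios, the 5 highest and 5 lowest mean signals, and members over 1.5-fold from the median. Also named were the P stalk, the 5S ribonucleoprotein, paralogs with their partners, and Pa2g4. From the other lists of ribosome and translation genes, the 2 brightest were named, with those over 1.25-fold apart that reached 500. Cell type markers were named in part only, and some markers over 1.25-fold apart were left out. Other members and probe sets were named after their values were seen. The members and lists were chosen with earlier results of these data known. Steps were tested on simulated data. Python 3.11.15, numpy 2.4.6, pandas 2.3.3, scipy 1.17.1, statsmodels 0.14.6 (loess fraction 0.3) and matplotlib 3.10.9 were used. The alternatives were 4 other scalings, 50 added to each signal, the mean over probe sets, leaving out probe sets ending in _x_at and _s_at, and minimum signals of 100, 5000 and none.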

Additional observations from a re-analysis of the deposited data

How the results depend on the processing

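No paired analysis was possible because each genotype has 1 array. Under 10 alternatives, none of 485 values of single members moved by over 1.5-fold. This count was partly fixed in advance and is no measure of stability. A changed minimum signal leaves each single value as it is. Median centring and spike-in scaling each shift all ratios by 1 constant, which is under 1.5-fold. Of the 485 values, 75 fell on the other side of 0 from the deposited setting. Of these, 68 came from the 4 other scalings (9 with median centring, 14 with quantile normalization, 4 with loess, 41 with the spike-ins), 5 from the mean over probe sets and 2 from leaving out probe sets ending in _x_at and _s_at. Among 80 summary values, 61 stayed close to those of the deposited setting (medians within 0.1, counts within 1.5 times). A further 16 moved more than that, and 3 medians turned below 0, all with the spike-ins. The limit of 0.1 is wide against the members' median of 0.16, so the loess median of 0.07 counted as close. Each difference of large minus small medians also counted as close, whatever its sign. Centring each array on its median gave a median log2 ratio of 0.0543 for the members, 0.0580 for large and 0.0606 for small subunit genes, with 2 members more than 25% higher in knock out MEFs. Quantile normalization gave 0.0231, 0.0245 for large and 0.0254 for small subunit genes, with 23 of 42 members above 0. Scaling to the spike-ins turned the medians to -0.23 for the members, -0.228 for large and -0.226 for small subunit genes. It left 2 members above 0, 1 more than 25% higher, 7 more than 20% lower and 0 over 2-fold, and turned Rplp0 to -0.0620, Rps25 to -0.0403 and Rpl39 to -0.0629. This follows from its construction, which lowers every log2 ratio by 0.39. With the mean over probe sets 0 members were over 2-fold apart. With a minimum of 5000, which leaves 35 members, 1 was more than 25% higher and 0 over 2-fold. Without a minimum 1 was more than 20% lower, Rpl3l, whose signals are under 100 on both arrays. The members' median stayed above that of all genes under all 10 alternatives, by 0.03 to 0.22. Median centring and spike-in scaling shift both medians alike, so they could not change the distance of 0.21. The distance was 0.07 after quantile normalization and 0.11 after loess. The difference of large minus small medians changed sign, to 0.0153 without probe sets ending in _x_at and _s_at and 0.0151 with a minimum of 5000. Low signals limit the reading of dim members.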
